A study of Mus musculus with 9 samples.

Results

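The mRNAs of 61 chromatin remodelers and histone methylation enzymes were followed across CELF2-KI RIP, IgG RIP and input from newborn mouse cortex. The set took protein-coding genes whose symbol is *Arid1a*, *Arid1b* or *Arid2*, starts with *Smarc*, is *Chd1* to *Chd9*, or starts with *Kmt2*, *Kmt5*, *Setd* or *Kdm*. It held 61 of the 18559 protein-coding genes with a count, and all 61 were among the 15267 genes with enough counts to test. By family there were 12 subunits of the BAF and PBAF complexes, 4 other SNF2-type remodelers, 9 CHD remodelers, 5 KMT2, 3 KMT5 and 10 SETD genes, and 18 KDM demethylases.

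Chromatin remodelers use ATP to slide, evict or restructure nucleosomes. The BAF and PBAF complexes are assembled from alternative paralogs, and neural progenitors and postmitotic neurons use different versions of several subunits. Histone lysine methyltransferases, among them KMT2 and SETD proteins, write methyl marks, and KDM demethylases erase them. Variants in the human counterparts of many of these genes cause intellectual disability and autism, among them those of *Arid1b*, *Chd8*, *Kmt2a*, *Setd5* and *Kdm5c*. CELF2 is an RNA-binding protein that controls splicing in the nucleus and stability and translation of mRNAs in the cytoplasm. Nucleosome remodeling and histone methylation take place in the nucleus, whereas the measurement concerns mRNAs in the cytoplasmic fraction.

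In RIP-seq an antibody captures a protein from a lysate and the RNA bound to it is sequenced. All 9 libraries, controls included, came from P0 cortices heterozygous for the *Celf2* KI allele (p.R493H), so no wild-type cortex entered any comparison. Lysates were held at 4°C for 3 hours with 10 µg of a rabbit antibody against CELF2 (CELF2-KI RIP) or of non-specific rabbit IgG (IgG RIP), and the input was set aside beforehand. There were 3 libraries per condition, described by the submitters as biological replicates. Nothing in the sources used here says that the antibody separates the KI protein from the product of the other allele, and the cortex holds several cell types.

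Estimated counts assigned to protein-coding genes ranged from 13523190 to 16840230 in CELF2-KI RIP, from 9347252 to 14965224 in IgG RIP and from 55250725 to 78514665 in input. Values per library are CPM, in which counts are divided by a library size scaled with the TMM method and set to a common total. CPM are shares of a library and are not corrected for transcript length, so levels are compared between conditions and not between genes. A gene was called where edgeR's quasi-likelihood test gave a Benjamini-Hochberg FDR under 0.01 over all 15267 genes and the estimated change was at least 2-fold. Excitatory neuron markers summed to between 1570 and 2180 CPM with the CELF2 antibody, 852 and 983 with IgG, and 910 and 1080 in input. Radial glia markers summed to between 167 and 258, 458 and 503, and 580 and 623 CPM in the same order, and erythroid markers to between 92.7 and 95, 366 and 584, and 877 and 1140. According to the paper, the RIPs used the lysate left after the input was taken. These sums are shares of the RNA in a library and do not count cells, and the part of cell type in the results below was not tested. The lists held 6, 7 and 5 markers, all found. Summed markers of inhibitory neurons (5 genes), astrocytes (4), OPCs (4), microglia (7) and endothelium (4) ranged from 90.2 to 895 CPM with the CELF2 antibody, 63.7 to 557 with IgG, and 148 to 935 in input, and no listed marker was at 0 throughout. Transcript rows that could not be matched to a gene held 21.1% to 43.5% of the counts in IgG RIP and 9.24% to 12.6% in the other libraries, so a member's sum can be incomplete.

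With the 2-fold threshold, a smaller share of these mRNAs than of all genes was called between the antibodies. Over IgG RIP, 4 of 61 members were called higher (6.56%, all tested genes 13.4%) and 3 lower (4.92%, all genes 13.6%). At FDR under 0.01 with any fold the shares lay closer, with 11 members higher (18.0%, all genes 22.9%) and 12 lower (19.7%, all genes 19.2%). Against input, 10 members were called higher (16.4%, all genes 14.6%) and 3 lower (4.92%, all genes 15.5%). *Smarcd1*, *Setd1b* and *Kdm4a* were higher than both controls (4.92% of members, 7.58% of all genes), and *Smarcd3* and *Setd6* were lower than both (3.28%, all genes 9.54%). Both comparisons use the same CELF2-KI RIP libraries. Under total-count scaling 0 members were called higher and 5 lower than both controls by edgeR.

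The IgG RIP also differed from input for these genes. It held 5 of 61 members at called higher levels (8.20%, all genes 6.79%), and at FDR under 0.01 with any fold 22 of 61 were higher (36.1%), against 12% of all genes. In the other direction edgeR called 0 members lower in IgG RIP than in input (all genes 5.0%), 2 were lower at an unadjusted p under 0.05, and DESeq2 called 1, *Smarcb1*. The median log2 fold change of the members over input was 0.57 for the CELF2 antibody and 0.51 for IgG, where the medians of all genes were 0.19 and -0.00. Between the antibodies the members' median was -0.09 and that of all genes -0.06. Nuclear-retained noncoding RNAs (5 of 6 listed were found) summed to between 6830 and 9990 CPM in CELF2-KI RIP and 6820 and 10900 in IgG RIP, above the 4270 to 5070 of input, and their part in these differences was not tested.

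The fold changes depend on how the libraries are scaled. TMM factors were 0.771 to 0.878 in CELF2-KI RIP, 1.05 to 1.08 in IgG RIP and 1.12 to 1.16 in input. Scaling by total protein-coding counts instead moved the median of all genes to -0.42 over IgG RIP and -0.27 over input, and that of the members to -0.47 and 0.11. The members' median less that of all genes stayed at 0.38 over input and at 0.51 for IgG RIP over input under both scalings, and was -0.04 and -0.05 over IgG RIP.

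**Figure D1:**
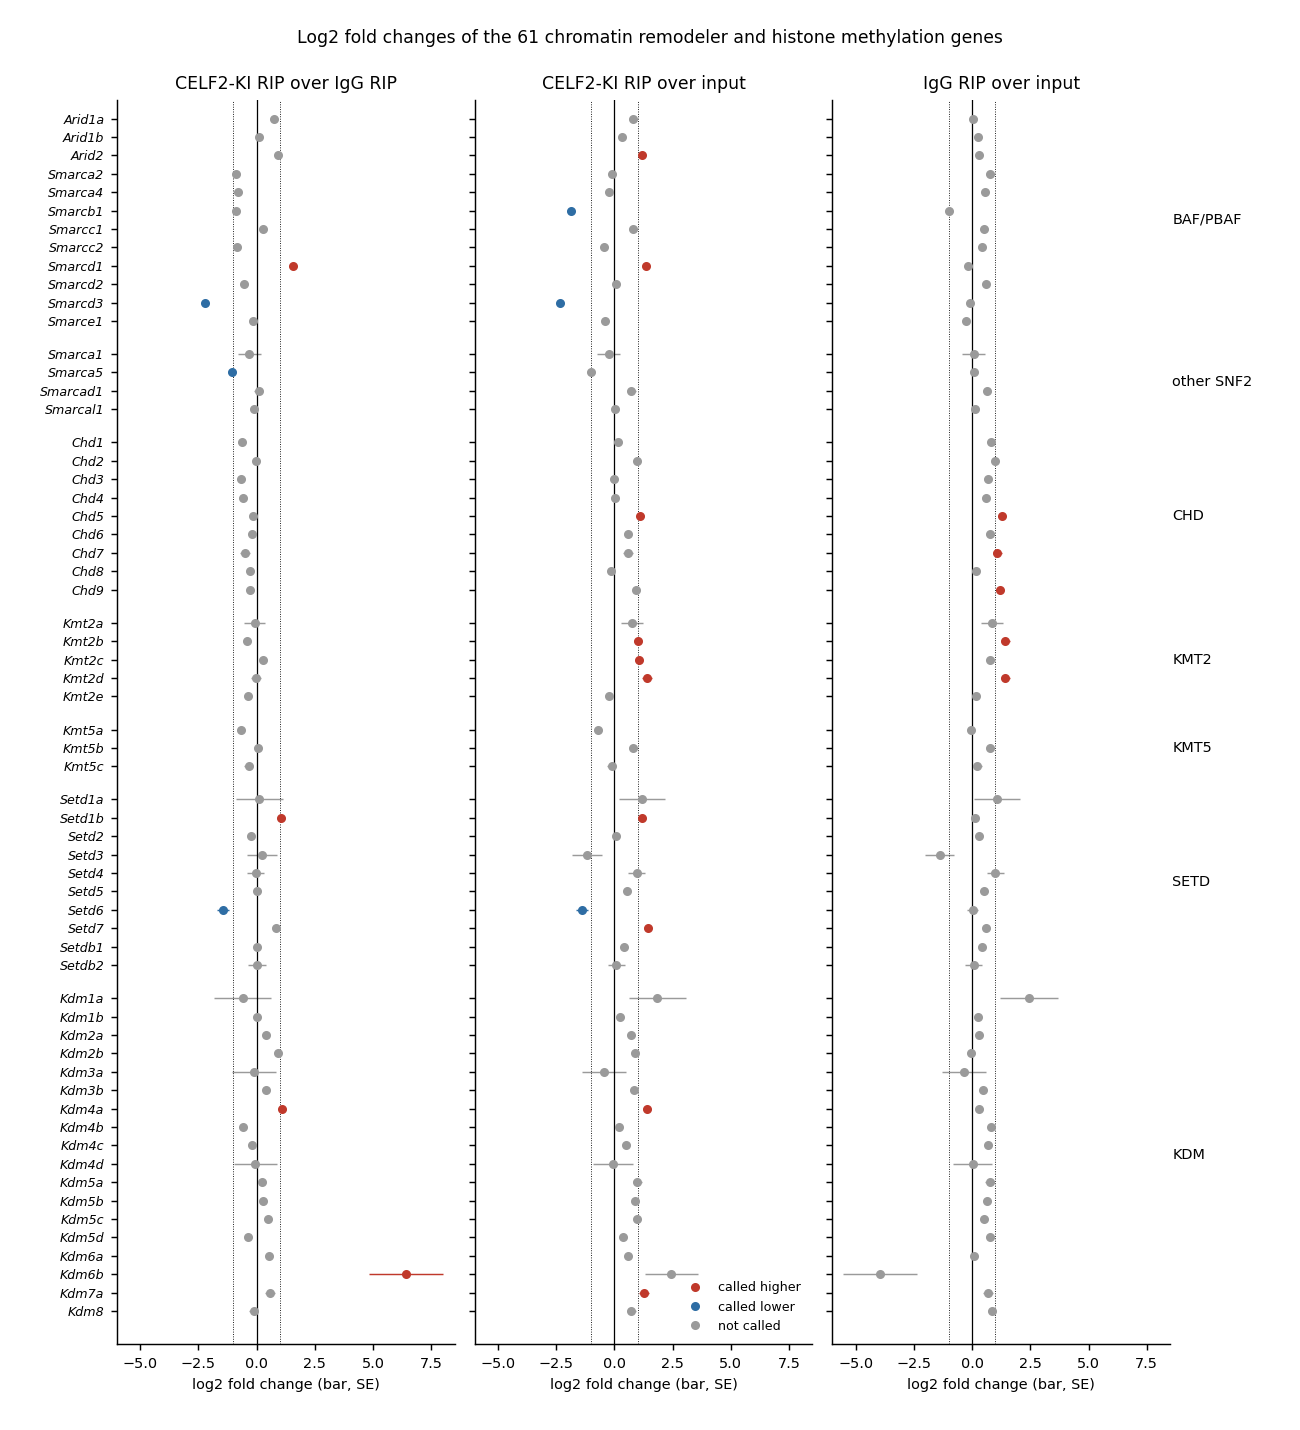
Log2 fold change with SE (x axis) of each of the 61 genes (y axis, by family) for CELF2-KI RIP over IgG RIP, CELF2-KI RIP over input and IgG RIP over input, with dotted lines at 2-fold and colors for genes called higher, lower or not called. Most points of the left panel lie between the dotted lines, *Smarcd1* (1.54) and *Smarcd3* (-2.22) lie outside on opposite sides, and *Kdm6b* (6.42) carries a wide error bar.

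The BAF and PBAF subunits split between opposite directions. *Smarcd1* and *Smarcd3* encode alternative BAF60 subunits that occupy the same place in the complex. *Smarcd1* (chr15:99702287-99713995, GRCm38.p6) measured 371, 516 and 447 CPM with the CELF2 antibody, 146, 148 and 167 with IgG, and 168, 160 and 194 in input. Its lowest CELF2-KI RIP library was thus above all 6 controls. In log2 terms the difference was 1.54 (SE 0.14, FDR 1.63e-05) over IgG RIP and 1.35 (SE 0.14, FDR 2.5e-05) over input.

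*Smarcd3* (chr5:24592622-24624456), the BAF60 paralog known from heart and neuronal BAF complexes, lay on the other side. It measured 17.5, 16.9 and 17.0 CPM with the CELF2 antibody, 80.2, 80.2 and 78.2 with IgG, and 81.2, 80.5 and 94.5 in input. The CELF2-KI RIP libraries did not overlap either control and averaged 17.1 ± 0.353 CPM (SD, n = 3). edgeR put the log2 difference at -2.22 (SE 0.11, FDR 3.93e-06) over IgG RIP and -2.32 (SE 0.11, FDR 4.03e-07) over input, a fold of 4.65 and 4.99. Both genes kept their calls in all 9 fits that left out 1 library. *Smarcd2*, the remaining paralog, was at -0.53 over IgG RIP (FDR 0.00779, under 2-fold) and 0.06 over input.

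The transcript rows of *Smarcd3* were not used evenly. The predicted row that held 76.8% of its counts in input and 66.7% in IgG RIP held 30.7%, 11% and 0% in the CELF2-KI RIP libraries, where the rows with the most counts were another predicted mRNA (31.2%) and a predicted noncoding form (28.6%). With curated rows alone the change of *Smarcd3* was -1.75 over IgG RIP and no longer passed (FDR 0.328), and with version-matched rows it was -2.03 and was called. *Smarcd1* has 1 curated row and no such split.

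**Figure D2:**
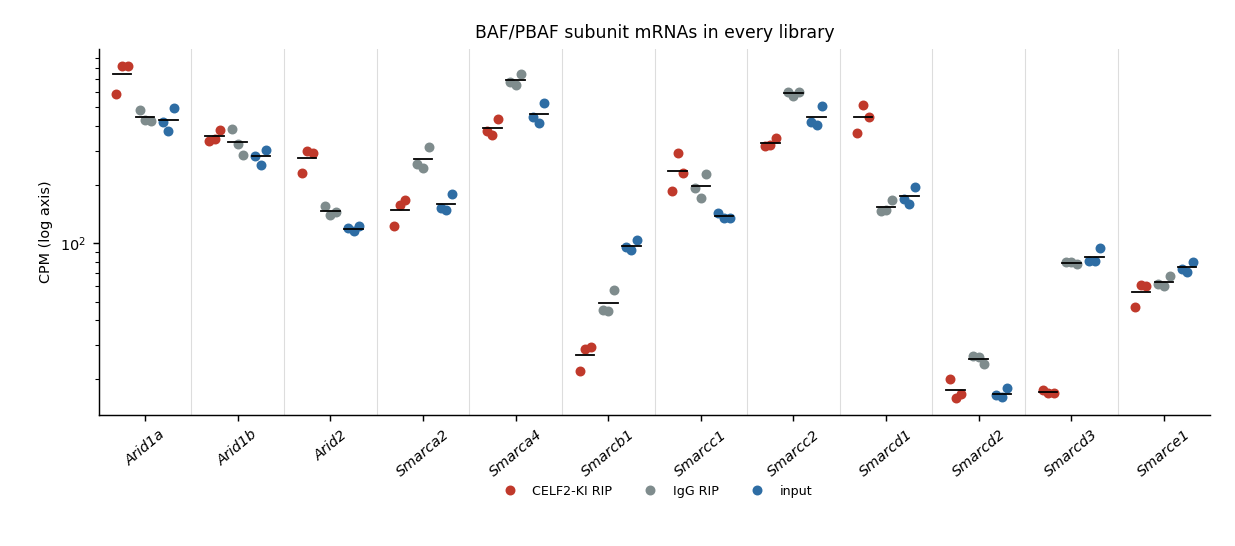
CPM on a log axis (y axis) of the 12 BAF/PBAF subunit mRNAs (x axis) in each of the 3 libraries for CELF2-KI RIP, input and IgG RIP, with black lines at the means. *Smarcd1* stands above and *Smarcd3* below both controls in every CELF2-KI RIP library.

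The ARID subunits, of which *Arid1a* and *Arid1b* belong to BAF and *Arid2* to PBAF, were on the higher side or near 0. *Arid2* measured 230, 298 and 292 CPM with the CELF2 antibody, 140 to 155 with IgG, and 115 to 122 in input. It was 1.20 higher than input on the log2 scale (SE 0.12, FDR 2.02e-05) and 0.90 higher than IgG RIP (SE 0.12, FDR 0.000119), just short of 2-fold. *Arid1a* was at 0.73 and 0.78 over IgG RIP and input, past the FDR and under 2-fold. *Arid1b* measured 337, 345 and 381 CPM with the CELF2 antibody, 385, 325 and 284 with IgG, and 282, 254 and 303 in input. Its CELF2-KI RIP libraries overlapped those of IgG RIP, with a log2 difference of 0.10 (SE 0.13, FDR 0.549). The sign turned under total-count scaling (-0.27), upper-quartile scaling (-0.17), curated rows (-0.42) and version-matched rows (-0.39), and none of these values passed.

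Of the 12 BAF/PBAF genes, 6 passed the FDR downward over IgG RIP, where 19.2% of all genes did, and 3 passed upward, where 22.9% did. The ATPases *Smarca4* (BRG1) and *Smarca2* (BRM), the core subunit *Smarcb1* and the scaffold *Smarcc2* were at -0.82, -0.87, -0.89 and -0.85 over IgG RIP. These 4 passed the FDR and none reached 2-fold, and with curated rows *Smarca4* did not pass (-0.36, FDR 0.462). Over input, *Smarca4* and *Smarca2* were at -0.25 and -0.10 (FDR 0.106 and 0.562), and in IgG RIP over input they were at 0.57 and 0.76, both past the FDR. *Smarcb1* differed, with 22.1, 28.5 and 29.2 CPM with the CELF2 antibody, 44.9 to 57.3 with IgG, and 91.7 to 104 in input, and was called lower than input at -1.87 (SE 0.15, FDR 7.08e-06). *Smarcc1*, the other scaffold paralog, was at 0.26 over IgG RIP (FDR 0.2) and 0.78 over input (FDR 0.00225), and *Smarce1* at -0.17 and -0.42 (FDR 0.294 and 0.0148).

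Ratios of paired paralogs within a library do not depend on the scaling of libraries. These pairs were chosen after their values were seen, and with 3 libraries against 3 an exact permutation test cannot go below 0.1. The ratio of *Smarcd1* to *Smarcd3* counts was 21.2, 30.6 and 26.4 with the CELF2 antibody, 1.82, 1.85 and 2.13 with IgG, and 2.06, 1.99 and 2.05 in input. The conditions do not overlap for CELF2-KI RIP against the controls, while the controls lie close together. The ratio of *Smarcc1* to *Smarcc2* was 0.586 to 0.914 with the CELF2 antibody, 0.3 to 0.377 with IgG and 0.266 to 0.341 in input. That of *Arid1a* to *Arid1b* was 1.74 to 2.36, 1.26 to 1.5 and 1.49 to 1.64 in the same order. In each pair the CELF2-KI RIP libraries were above all 6 controls. For *Smarcd1* over *Smarcd3* this follows from the values of both genes, which were each separate from all 6 controls. The gene with the higher log2 fold change was the numerator, and no share over other gene pairs was computed.

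**Figure D3:**
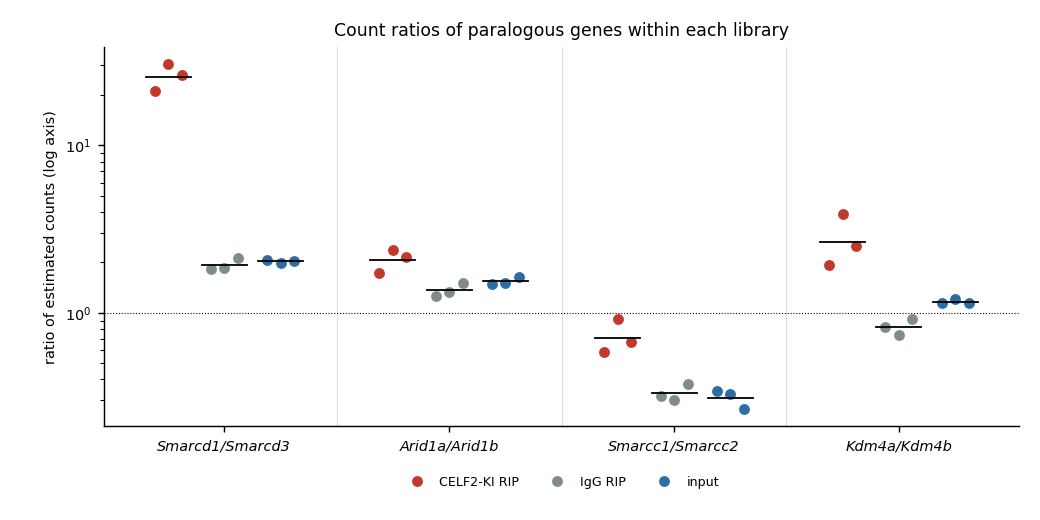
Ratio of estimated counts of paired paralogs (y axis, log scale) within each library for 4 pairs of genes (x axis), with a point per library (CELF2-KI RIP, input or IgG RIP) and black lines at the geometric means. The 3 CELF2-KI RIP points of *Smarcd1* over *Smarcd3* lie between 21.2 and 30.6, and the 6 control points between 1.82 and 2.13.

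Among the 4 other SNF2-type remodelers, *Smarca5* was the lower one. It encodes SNF2H, the ATPase of most ISWI complexes, and measured 26.9, 20.5 and 20.3 CPM with the CELF2 antibody, 55.0, 37.6 and 47.3 with IgG, and 47.1, 47.1 and 40.4 in input. All CELF2-KI RIP libraries were below all 6 controls. On the log2 scale this was -1.05 over IgG RIP (SE 0.18, FDR 0.000573), which was called, and -0.99 over input (SE 0.17, FDR 0.00068), which fell short of 2-fold. With the replicate number as a block the input value was -1.01 and was called, which made 3 members lower than both controls. The call over IgG RIP was lost without CELF2-KI RIP replicate 2 (-0.99), CELF2-KI RIP replicate 3 (-0.98) or IgG RIP replicate 1 (-0.91). Over input it was gained without CELF2-KI RIP replicate 1 (-1.14) or without input replicate 1 (-1.07), 2 (-1.07) or 3 (-1.17), and *Smarca5* was lower than both controls in those 4 fits. It was also lower than both with DESeq2, total-count or upper-quartile scaling, without a filter, and with curated or version-matched rows.

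*Smarcad1*, a remodeler linked to heterochromatin maintenance, measured 43.0, 69.1 and 51.9 CPM with the CELF2 antibody, 47.7, 47.2 and 60.3 with IgG, and 33.2, 31.6 and 34.1 in input. It overlapped IgG RIP (0.08, FDR 0.725) and was 0.73 above input (FDR 0.00478, under 2-fold). *Smarcal1*, an annealing helicase of stalled replication forks, was at -0.11 and 0.03 (FDR 0.553 and 0.859). *Smarca1*, the SNF2L ATPase, varied from 8.62 to 33.9 CPM within IgG RIP, and no difference passed the test.

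The 9 CHD remodelers all had log2 fold changes below 0 over IgG RIP, from -0.68 to -0.01 with a median of -0.30, as were 7939 of the 15267 genes. Of the 9, *Chd1* (-0.65) and *Chd3* (-0.68) passed the FDR, under 2-fold, where 19.2% of all genes passed downward. With curated rows *Chd3* was at -0.14 (FDR 0.727), and *Chd5* (0.11), *Chd6* (0.02) and *Chd9* (1.95) were above 0 without passing, and with version-matched rows *Chd3* (0.13), *Chd5* (0.16), *Chd6* (0.08) and *Chd9* (1.26) were, also without passing. Over input the median was 0.57 and 4 of 9 passed the FDR upward, where 26.8% of all genes did.

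In IgG RIP over input the CHD median was 0.82 and 7 of 9 passed the FDR upward, where 12% of all genes did. Among these, *Chd5* (1.27), *Chd7* (1.08) and *Chd9* (1.18) were called. None of these 3 calls held with a narrower set of transcripts. With curated and version-matched rows *Chd5* was at 0.96 and 0.91, *Chd7* at 0.41 and 1.03 (FDR 0.719 and 0.0736) and *Chd9* at -1.97 and -0.75.

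*Chd3*, *Chd4* and *Chd5* encode the alternative ATPases of the NuRD complex, which couples remodeling to histone deacetylation. *Chd3* measured 755, 591 and 922 CPM with the CELF2 antibody, 1340, 1210 and 1090 with IgG, and 705, 723 and 842 in input. It was below IgG RIP in every CELF2-KI RIP library and did not separate from input (-0.00, SE 0.16, FDR 0.991). *Chd4* had the same order with -0.57 over IgG RIP (FDR 0.0179) and 0.01 over input (FDR 0.969). *Chd5*, the neuronal paralog, differed from both by its distance to input, at 386, 564 and 549 CPM with the CELF2 antibody, 497 to 602 with IgG, and 203 to 265 in input. It was called higher than input at 1.12 (SE 0.16, FDR 0.000211) and was not separated from IgG RIP (-0.15, FDR 0.476). The input call was lost without input replicate 1 (0.98) or input replicate 2 (0.93), and with DESeq2 size factors (0.98), upper-quartile scaling (0.88) or total counts (0.65).

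*Chd2*, whose human counterpart is linked to epileptic encephalopathy, measured 95.4, 119 and 123 CPM with the CELF2 antibody, 120, 108 and 110 with IgG, and 54.3, 57.6 and 59.1 in input. Both RIPs lay above input, at 0.98 and 0.99, just under 2-fold. Without CELF2-KI RIP replicate 1 the first reached 1.08 and was called. *Chd8*, among the genes most often mutated in autism, measured 189, 235 and 251 CPM with the CELF2 antibody, 298, 281 and 253 with IgG, and 261, 240 and 249 in input. The conditions lay close together, at -0.30 over IgG RIP (SE 0.12, FDR 0.0601) and -0.15 over input (SE 0.12, FDR 0.313).

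The transcript rows of *Chd8* were divided unevenly, and these shares were not tested. The curated row held 53.0% of its counts in IgG RIP, 27.1% in input and 0.01% in CELF2-KI RIP, while a predicted row held 64.6% in CELF2-KI RIP, 18.9% in IgG RIP and 60.0% in input. With curated rows alone *Chd8* was called lower than both controls (-12.33 and -11.11). Estimated counts divide reads shared between isoforms by a model, and no value here shows which form was present. *Chd6*, *Chd7* and *Chd9* were at -0.18, -0.50 and -0.27 over IgG RIP, none past the FDR, and at 0.57, 0.58 and 0.91 over input, where *Chd6* and *Chd9* passed. The call of *Chd7* in IgG RIP over input was lost without IgG RIP replicate 1 (0.82), input replicate 2 (FDR 0.0124) or input replicate 3 (FDR 0.0132).

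**Figure D4:**
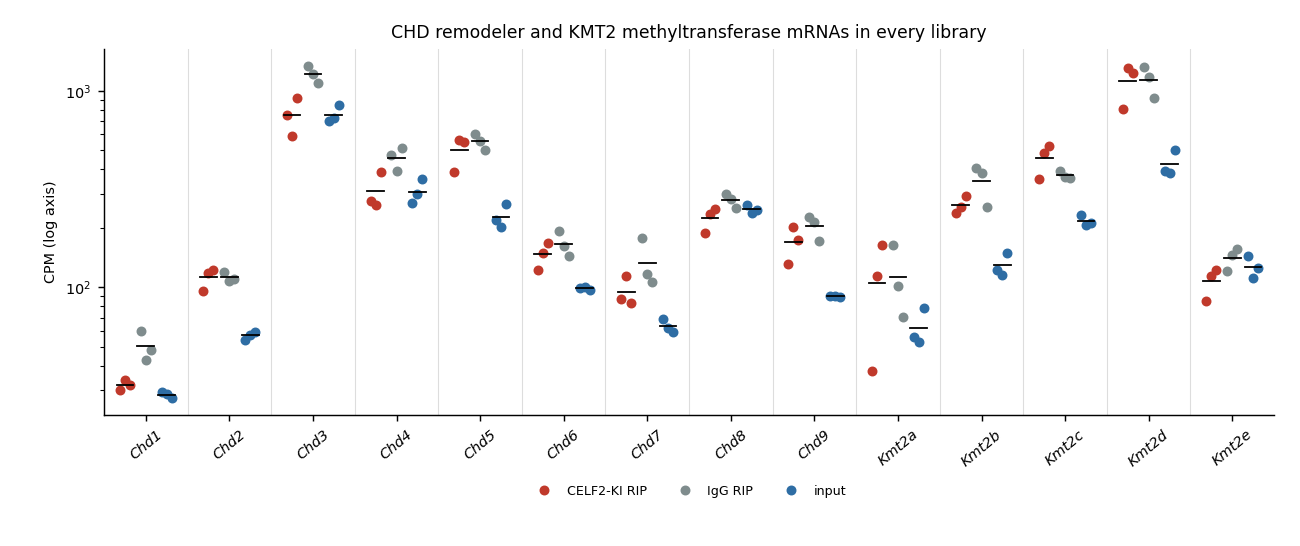
CPM on a log axis (y axis) of the 9 CHD and 5 KMT2 mRNAs (x axis) in each library for CELF2-KI RIP, input and IgG RIP, with black lines at the means. For *Chd5*, *Chd9*, *Kmt2b* and *Kmt2d* both RIPs lie above input, and the CELF2-KI RIP means do not exceed those of IgG RIP.

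The KMT2 methyltransferases write methylation on lysine 4 of histone H3 at promoters and enhancers. Over IgG RIP the 5 genes had log2 fold changes from -0.41 to 0.29 and FDRs of 0.0595 or above. Over input, *Kmt2b* (1.02), *Kmt2c* (1.06) and *Kmt2d* (1.40) were called higher, as were 14.6% of all genes. In IgG RIP over input *Kmt2b* and *Kmt2d* were called higher at 1.43 each, as were 6.79% of all genes. *Kmt2d*, mutated in Kabuki syndrome, measured 806, 1310 and 1230 CPM with the CELF2 antibody, 1320, 1180 and 917 with IgG, and 393, 382 and 499 in input. The RIPs overlapped each other and both were above all inputs.

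*Kmt2b* measured 239, 257 and 291 CPM with the CELF2 antibody, 407, 382 and 255 with IgG, and 123, 116 and 150 in input. Its call over input was lost without CELF2-KI RIP replicate 3 (0.93), input replicate 1 (0.87) or input replicate 2 (0.83), and with curated transcript rows, of which the larger held 5.89% of its counts in CELF2-KI RIP, the value was -0.63 (FDR 0.706). *Kmt2c* measured 357, 480 and 524 CPM with the CELF2 antibody, 393, 363 and 360 with IgG, and 233, 208 and 212 in input. It had the highest log2 fold change over IgG RIP of the family at 0.29 (SE 0.14, FDR 0.105), and its libraries overlapped those of IgG RIP. Its input call was lost without CELF2-KI RIP replicate 3 (0.94), input replicate 2 (0.91) or input replicate 3 (0.93), and fell just short of 2-fold without input replicate 1. Neither *Kmt2b* nor *Kmt2c* was called over input with DESeq2 size factors, the DESeq2 Wald test, upper-quartile or total-count scaling, or curated rows. The same held without a filter and when tested against 2-fold itself.

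*Kmt2a*, mutated in Wiedemann-Steiner syndrome, varied too much to place. It measured 37.8, 114 and 165 CPM with the CELF2 antibody, 165, 102 and 70.7 with IgG, and 56.0, 52.5 and 78.8 in input. The lowest CELF2-KI RIP library was below all 6 controls and the highest reached the highest IgG RIP library, and no difference passed (FDR 0.879 and 0.176). *Kmt2e*, a related protein whose SET domain is not known as an active histone methyltransferase, was at -0.39 over IgG RIP and -0.25 over input (FDR 0.0595 and 0.207).

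The KMT5 enzymes methylate lysine 20 of histone H4. *Kmt5a*, which places the first methyl group, measured 10.6, 10.7 and 10.5 CPM with the CELF2 antibody, 17.7, 16 and 17.1 with IgG, and 17.5, 16.7 and 18.2 in input. Its CELF2-KI RIP libraries were close to each other and below all 6 controls, and the differences of -0.67 (SE 0.13, FDR 0.0013) and -0.72 (SE 0.13, FDR 0.00069) passed the FDR without reaching 2-fold. *Kmt5b* measured 73.7, 111 and 86.0 CPM with the CELF2 antibody, 101, 91.6 and 67.6 with IgG, and 53.2, 52.4 and 47.6 in input. It overlapped IgG RIP (0.06, FDR 0.817) and was 0.82 above input (FDR 0.00288). *Kmt5c*, which with *Kmt5b* adds the further methyl groups, was at -0.34 and -0.12 (FDR 0.165 and 0.604).

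Among the 10 SETD genes, *Setd1b* was higher and *Setd6* lower than both controls. *Setd1b* (chr5:123142040-123168630), a writer of histone H3 lysine 4 methylation linked to epilepsy and intellectual disability, measured 256, 428 and 359 CPM with the CELF2 antibody, 167, 165 and 176 with IgG, and 154, 139 and 171 in input. Every CELF2-KI RIP library was above every control. In log2 terms the difference was 1.04 over IgG RIP (SE 0.17, FDR 0.000515) and 1.17 over input (SE 0.17, FDR 0.00021). Being near 2-fold, the call over IgG RIP was lost without CELF2-KI RIP replicate 2 (0.86) or without any 1 input library (0.93 in each), and that over input without CELF2-KI RIP replicate 2 (0.99) or input replicate 2 (0.98). With curated rows alone they were 0.70 and 0.81 (FDR 0.102 and 0.0608). The call over IgG RIP was also lost with DESeq2 size factors, with the DESeq2 Wald test and without a filter. Neither call held under upper-quartile or total-count scaling, with version-matched rows, or when tested against 2-fold itself.

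*Setd6* (chr8:95715634-95721507), which methylates the RelA subunit of NF-kB, was a low mRNA with 1.92, 2.39 and 3.66 CPM with the CELF2 antibody, 8.32, 6.54 and 6.52 with IgG, and 6.91, 6.60 and 7.52 in input. Its CELF2-KI RIP libraries rested on few counts and did not overlap the controls. edgeR put the log2 difference at -1.43 over IgG RIP (SE 0.26, FDR 0.00104) and -1.40 over input (SE 0.26, FDR 0.000914), and both calls held in all 9 fits that left out 1 library. *Setd7*, a monomethyltransferase of histone and other proteins, measured 113 to 156 CPM with the CELF2 antibody, 64.4 to 86.4 with IgG, and 50.7 to 52.5 in input. It was called over input at 1.43 (SE 0.15, FDR 3.44e-05) and was at 0.82 over IgG RIP (SE 0.15, FDR 0.00123), under 2-fold.

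*Setd5*, mutated in a form of intellectual disability, did not separate between the antibodies. It measured 220, 223 and 239 CPM with the CELF2 antibody, 230, 220 and 232 with IgG, and 164, 156 and 152 in input. On the log2 scale this was 0.00 over IgG RIP (SE 0.09, FDR 0.995) and 0.53 over input (SE 0.09, FDR 0.000546). *Setd2*, the writer of trimethylation on lysine 36 of histone H3, was at -0.24 and 0.05, and *Setdb1*, a writer of lysine 9 methylation, at 0.00 and 0.43, where only the input value of *Setdb1* passed the FDR (0.00902). *Setd1a*, *Setd3*, *Setd4* and *Setdb2* passed in neither comparison, at 0.12, 0.24, -0.04 and 0.02 over IgG RIP and 1.18, -1.17, 0.96 and 0.08 over input, with SEs of 0.36 or more. With curated rows alone *Setd3* was called higher than IgG RIP, and lower in IgG RIP than in input. Its curated row held 14.6% to 99.9% of its counts in CELF2-KI RIP, 0% to 0.01% in IgG RIP and 70.4% to 95.4% in input. These shares were not tested.

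**Figure D5:**
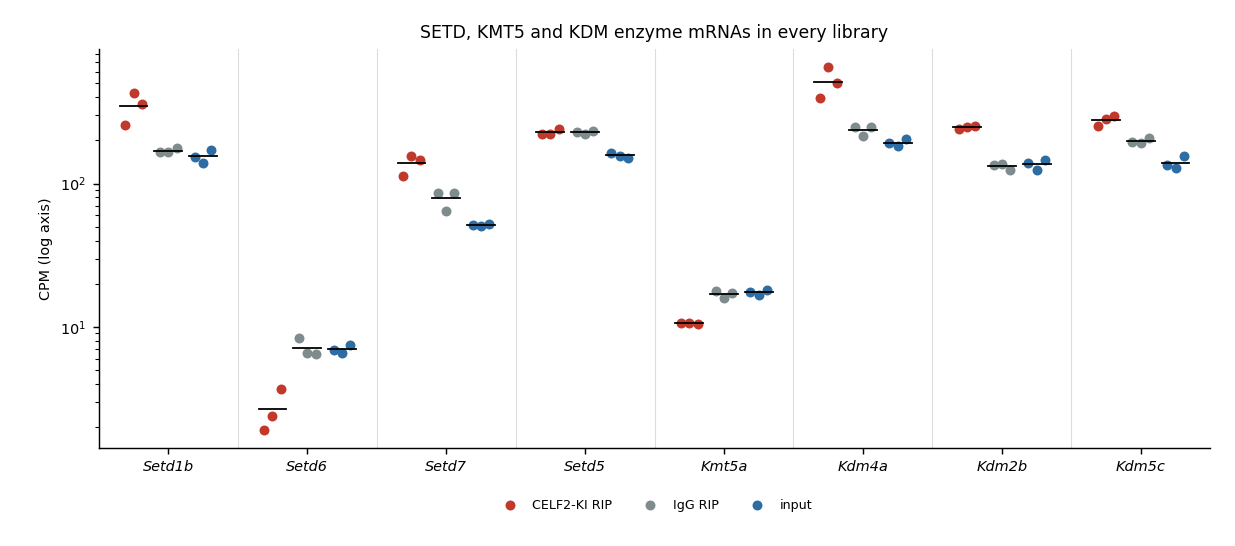
CPM on a log axis (y axis) of 8 SETD, KMT5 and KDM mRNAs (x axis) in each library for CELF2-KI RIP, input and IgG RIP, with black lines at the means. *Setd1b* and *Kdm4a* stand above both controls and *Setd6* below, while the *Setd5* libraries of both RIPs overlap between 220 and 239 CPM.

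The KDM demethylases, the largest family, made up 6 of the 11 members that passed the FDR upward over IgG RIP. Here their median log2 fold change was 0.25, 6 of 18 passed upward and 1, *Kdm4b*, downward. The shares of all genes at that rule are the 22.9% and 19.2% given above. Over input the median was 0.79 and 11 of 18 passed upward, where 26.8% of all genes did and 20.1% passed downward. No family was tested against another.

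*Kdm4a* (chr4:118136957-118180090), a demethylase of lysines 9 and 36 of histone H3, was higher than both controls. It measured 396, 648 and 501 CPM with the CELF2 antibody, 250, 215 and 249 with IgG, and 192, 182 and 206 in input, with no overlap. In log2 terms the difference was 1.11 over IgG RIP (SE 0.16, FDR 0.000263) and 1.41 over input (SE 0.17, FDR 5.31e-05). The call over IgG RIP was lost without CELF2-KI RIP replicate 2, the highest library (0.91), and with curated rows alone the values were 0.93 and 0.85 (FDR 0.0886 and 0.112). It was also lost with upper-quartile scaling and with version-matched rows. Under total-count scaling, and when tested against 2-fold itself, *Kdm4a* was called over neither control. *Kdm4b*, its closest paralog here, was at -0.60 over IgG RIP (FDR 0.00156, under 2-fold) and at 0.20 over input (FDR 0.16), and the ratio of *Kdm4a* to *Kdm4b* counts was 1.92 to 3.88 with the CELF2 antibody, 0.734 to 0.922 with IgG and 1.14 to 1.21 in input. *Kdm4c* was at -0.18 and 0.51.

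The KDM5 demethylases remove methylation from lysine 4 of histone H3. *Kdm5c*, an X-linked intellectual disability gene, measured 252, 282 and 294 CPM with the CELF2 antibody, 194, 193 and 207 with IgG, and 134, 129 and 155 in input. The conditions formed separate steps, with 0.48 over IgG RIP (SE 0.11, FDR 0.00369) and 0.99 over input (SE 0.11, FDR 3.86e-05), both under 2-fold. Over the alternative settings *Kdm5c* ranged from 0.11 to 0.54 over IgG RIP and from 0.52 to 1.05 over input. *Kdm5a* and *Kdm5b* were at 0.23 and 0.27 over IgG RIP (FDR 0.345 and 0.0324) and at 0.98 and 0.90 over input, where both passed the FDR. *Kdm5d*, the Y-linked paralog, was at -0.39 and 0.37 (FDR 0.0617 and 0.0626). Scaled by total counts, *Kdm5a* and *Kdm5b* turned below 0 over IgG RIP.

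The lysine 36 demethylase *Kdm2b* measured 241, 250 and 254 CPM with the CELF2 antibody, 124 to 138 with IgG, and 124 to 145 in input. It stood above all controls at 0.91 (SE 0.10, FDR 4.26e-05) and 0.87 (SE 0.10, FDR 4.64e-05), just short of 2-fold in each. With curated rows, and with version-matched rows, *Kdm2b* was called over IgG RIP and not over input. In *Kdm2a*, *Kdm3b* and *Kdm6a* no CELF2-KI RIP library overlapped a control, and the steps were smaller, at 0.39, 0.38 and 0.52 over IgG RIP and 0.70, 0.86 and 0.60 over input. *Kdm7a* was called over input at 1.28 (SE 0.22, FDR 0.000579) and was at 0.58 over IgG RIP (FDR 0.043). *Kdm1b* was at -0.00 and 0.24 (FDR 0.994 and 0.209), and *Kdm8* at -0.13 and 0.72 (FDR 0.611 and 0.00851).

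*Kdm6b*, a demethylase of lysine 27 of histone H3, had a large and unsteady difference. It measured 16, 47.4 and 33.6 CPM with the CELF2 antibody, 0, 0 and 1.08 with IgG, and 11.5, 6.29 and 0.0162 in input. In counts, the IgG RIP libraries held 0, 0 and 15 and input replicates 1 to 3 held 726, 571 and 1, so input replicate 3 lay near 0 although its depth was close to that of input replicate 1. Its 6.42 on the log2 scale against IgG RIP was called (SE 1.60, FDR 0.00628), while 2.44 over input was not (FDR 0.0865). The call over IgG RIP was lost in 7 of 9 fits that left out 1 library, with values between 5.74 and 13.13, and with the replicate block (6.39, FDR 0.0163). All its counts came from 1 transcript row.

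Such unsteady values were not unique to *Kdm6b*. In 6 members (9.84%, 3.63% of all genes) the libraries of a condition with a mean of at least 5 CPM spread more than 3-fold: *Smarca1*, *Kmt2a*, *Setd1a*, *Setd3*, *Kdm3a* and *Kdm6b*. *Setd1a* and *Kdm3a* were listed at 0 in IgG RIP replicate 3 and at 36.7 to 46.3 CPM in the other IgG RIP libraries. A further 4 members (6.56%, 24.5% of all genes) had a mean under 5 CPM, namely *Setd4*, *Setdb2*, *Kdm1a* and *Kdm4d*. *Kdm3a* was at -0.10 and -0.45 over IgG RIP and input, and *Kdm4d* at -0.06 and -0.05, none past the FDR. *Kdm1a*, the LSD1 demethylase, measured 1.68, 2.93 and 0 CPM with the CELF2 antibody, 1.06, 1.98 and 4.01 with IgG, and 0, 0.848 and 0.420 in input, and no difference passed. Without these 10 members, a split made after seeing the data, 3 of 51 remained called higher and 3 lower than IgG RIP, and the medians were -0.13 over IgG RIP and 0.57 over input.

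Most members had many counts. Binned by mean CPM, a measure of counts that also grows with transcript length, 40 of the 61 lay in the top 3 of 10 equal bins of all tested genes and 24 in the top bin, while 6 lay in the lowest 3. In that top bin, from 145 CPM upward, the median log2 fold change over IgG RIP was 0.05 for the members and 0.61 for all genes. In the bin below it was -0.05 against 0.41. Over input the top-bin medians were 0.87 and 0.76, and for IgG RIP over input 0.52 and 0.03. Across the 61 members the Spearman correlation of the log2 fold change over IgG RIP with mean CPM was 0.12, against 0.31 over all 15267 genes. For the members it was 0.17 with genomic span and -0.21 with the number of transcript rows. These are given as descriptions, since all points share the same libraries.

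Ordering of the libraries did not need a fold threshold, but it used CPM scaled with TMM and was not repeated under another scaling. In 14 members (23.0%) all CELF2-KI RIP libraries were above all 6 controls, against 25.2% of all genes, and in 6 members (9.84%) they were below, against 19.9%. The 6 were *Smarcb1*, *Smarcc2*, *Smarcd3*, *Smarca5*, *Kmt5a* and *Setd6*. The 14 were 9 KDM genes (*Kdm2a*, *Kdm2b*, *Kdm3b*, *Kdm4a*, *Kdm5b*, *Kdm5c*, *Kdm6a*, *Kdm6b* and *Kdm7a*), 3 BAF/PBAF genes (*Arid1a*, *Arid2* and *Smarcd1*) and 2 SETD genes (*Setd1b* and *Setd7*). Against each control alone, the libraries lay above IgG RIP in 14 members (23.0%, all genes 30.0%) and below it in 14 (all genes 27.4%), and above input in 34 (55.7%, all genes 42.1%) and below it in 9 (14.8%, all genes 31.8%). IgG RIP lay above input in 36 members (59.0%, all genes 27.1%) and below it in 4 (6.56%, all genes 29.4%).

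Partner genes outside the rule were described the same way. Of the 15 other BAF/PBAF subunits with a count in a control library, 4 were higher than both controls (7.58% of all genes) and 1 lower (9.54% of all genes). The 4 were *Dpf1* (1.44 over IgG RIP and 1.05 over input), *Dpf3* (1.10 and 1.73), *Ss18l1* (1.56 and 1.66) and *Bicral* (1.68 and 1.52). *Dpf1*, *Dpf3* and *Ss18l1* are known as subunits of the BAF complex of postmitotic neurons. *Actl6b*, another subunit of that neuronal complex, was lower than both, at 13.0, 15.1 and 14.2 CPM with the CELF2 antibody, 47.2 to 52.1 with IgG, and 57.9 to 67.6 in input (-1.83 and -2.14). The neuronal subunits thus lay on both sides, as the BAF60 paralogs did.

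*Pbrm1*, the defining bromodomain subunit of PBAF, was listed at 0 in all 6 controls and at 15.0, 1.23 and 13.0 CPM in CELF2-KI RIP. The CELF2-KI RIP libraries held 187, 16 and 146 counts. It passed the filter on low counts only through these libraries, and an exact 0 can be a failed estimate, so it is left out of the count above and no fold is given.

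Of 12 COMPASS partner subunits, which assemble around the KMT2 and SETD1 enzymes, *Wdr5* (1.17 and 1.27) and *Rbbp5* (1.64 and 1.71) were higher and *Dpy30* (-1.28 and -2.37) lower than both controls. *Wdr5* measured 102, 140 and 109 CPM with the CELF2 antibody, 48.0 to 58.0 with IgG, and 48.2 to 49.2 in input. Among 11 NuRD partners, *Mbd3* alone was called against both controls (-1.07 and -1.52, lower). Among 13 other remodeler ATPases and ISWI partners it was *Atrx* (-2.05 and -1.59, lower), with IgG RIP libraries from 33.7 to 116 CPM, and among 21 other histone methyltransferases *Smyd2* (-1.41 and -1.27, lower). In the 9 other JmjC demethylases the log2 fold changes over IgG RIP ran from -0.77 to 0.63, with a median of 0.02. Leaving out each library in turn, both calls held in all 9 fits for *Ss18l1*, *Bicral*, *Actl6b*, *Wdr5*, *Rbbp5*, *Dpy30* and *Smyd2*, in 6 for *Dpf1* and *Mbd3*, and in 3 for *Dpf3* and *Atrx*.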

How the data were processed

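The libraries (3 each for CELF2-KI RIP, input and IgG RIP) were analysed from the estimated counts deposited by the authors, 1 row per RefSeq transcript, made with kallisto 0.51.1 after fastp 0.23.4 and Ribodetector 0.3.1. The authors did not normalize these expected counts for depth or length. The paper names an Ensembl transcriptome and the submitters' processing notes name mm10. Whether strand was used in counting is not given in the sources used here. All 9 columns were used and 0 were left out.

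Of 107384 rows, 86722 matched a gene by accession, ignoring version, in a RefSeq table of GRCm38.p6, which also gave the coordinates. Of the 344 rows of the members, 116 matched by version too. A total of 3 pseudogenes with matching symbols were left out. Counts were summed per gene and rounded. Coding genes reaching 0.5 CPM in 3 or more libraries were fitted with edgeR 4.0.16 in R 4.3.3 (TMM, 1 mean per condition over all 9 libraries), and SE is the log2 fold change divided by the square root of the F statistic. The common biological coefficient of variation was 0.221. Alternatives used DESeq2 1.42.0, other scalings, filters and transcript sets, and left out each library. The steps were tested on simulated data. Tables and figures used Python 3.11.15, pandas 2.3.3 and matplotlib 3.10.9.

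Members and lists were chosen with earlier results of these data known. Every library's value is given for members called against both controls, for the highest and lowest log2 fold change over IgG RIP in each family, and for *Arid1b*, *Chd8*, *Kmt2a*, *Setd5* and *Kdm5c*. Other members given by library were chosen after their values were seen. Replicates differed by more than sampling noise (chi-square per gene from 11.95 to 44.26), and reads carry no molecular identifiers, so errors cover the spread of these libraries. Deviations of same-numbered libraries correlated, across genes, at 0.11, 0.117 and 0.122 for CELF2-KI RIP with input. They correlated at -0.056, 0.043 and 0.014 between the RIPs and at 0.03, 0.065 and 0.038 for IgG RIP with input. Differently numbered libraries correlated at -0.091 to -0.037 for CELF2-KI RIP with input and at -0.076 to 0.065 between the RIPs. The labels give replicate numbers and do not name a pairing. The number was left out of the main fit and entered as a block in an alternative. No sequences are printed, since no table used here held the mRNA or protein sequences of these genes.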

Additional observations from a re-analysis of the deposited data

How the results depend on the processing

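With 3 libraries per condition, calls near 2-fold moved with the settings. In no setting did the median of the members over input, or of IgG RIP over input, change sign. Scaling by total counts left 2 members higher and 10 lower than IgG RIP, 0 higher and 5 lower than input, 0 higher and 5 lower than both (*Kmt5a*, *Setd6*, *Smarca5*, *Smarcb1* and *Smarcd3*), and 1 lower in IgG RIP than input, with medians of -0.47, 0.11 and 0.42. Upper-quartile scaling gave 2 higher and 7 lower than IgG RIP, 5 higher than input, 1 higher and 4 lower than both, and medians of -0.36 and 0.34 over IgG RIP and input. With DESeq2 size factors, and equally with the DESeq2 Wald test, 1 member was lower in IgG RIP than input, and the medians over input were 0.43 in CELF2-KI RIP and 0.44 with IgG. Testing against 2-fold itself (glmTreat) called 1 higher (*Smarcd1*) and 1 lower (*Smarcd3*) than IgG RIP, 0 higher than input, 0 higher and 1 lower than both, and 0 higher in IgG RIP than input. Without a filter, 1 member was lower in IgG RIP than input and the median over input was 0.46.

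Curated transcripts alone gave 5 lower than IgG RIP, 1 lower in IgG RIP than input, 1 higher and 4 lower than both, and a median of 0.34 over input. Version-matched transcripts gave 2 higher than IgG RIP, 3 higher in IgG RIP than input, 1 higher than both, and a median of 0.36. *Kmt2b* over input turned to -0.63 and -0.68 with these transcript sets, and the cause was not tested. *Smarcd1* was higher than both controls in every setting but total counts and glmTreat, where its value over input was 0.88 and 1.35. Among the named members, 656 alternative values stayed on the same side of the threshold, of which 36, uncalled in both fits, changed sign. A further 68 lost a call, 20 gained one and 2 reversed a called value.

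Leaving out 1 library gave 1 to 4 members higher and 2 to 3 lower than IgG RIP, 6 to 14 higher and 3 to 4 lower than input, 4 to 7 higher and 0 to 1 lower in IgG RIP than input, 1 to 4 higher and 2 to 3 lower than both, with medians from 0.42 to 0.62 over input. The replicate block gave 3 lower than both, with *Smarca5* at -1.01 over input, took the call of *Kdm6b* over IgG RIP, and changed no other call among the members. Leaving out the 10 unsteady or low members was added after seeing the data.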
